A study of Macaca mulatta with 30 samples.

Results

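The genes described are the ephrin ligands EFNA1, EFNA2, EFNA3, EFNA4, EFNA5, EFNB1, EFNB2 and EFNB3 and their receptors EPHA4 and EPHA5, in fetal lung and fetal hippocampus of rhesus macaques after antenatal corticosteroids. They were taken as the rows of the count tables whose rhesus Ensembl symbol is one of these 10 names. In lung 7 of the 10 were found among 30246 identifiers, and in hippocampus 8 of the 10 among 32386. All of those found passed the filter on low counts (a minimum of 7 reads in 3 of the lung or 5 of the hippocampus libraries), so none was lost to low counts. EFNA2 and EFNA4 matched no row in either table and EFNB3 matched none in lung, and these are not analysed there. The members found in lung were also found in hippocampus, under the same identifiers.

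Ephrins are ligands held on the cell surface, so that a cell signals to its neighbour by touching it. The A ligands are anchored to the membrane by a glycolipid, the B ligands cross it, and their receptors, the Eph receptors, are the largest family of receptor tyrosine kinases. Signals run in both directions, into the cell with the receptor and into the cell with the ligand. In the developing brain the pairs steer axons and lay out ordered maps, including the projection from hippocampus to septum, and later shape dendritic spines. In vessels EFNB2 marks arterial and EPHB4 venous endothelium, and ephrin-B signals take part in vessel branching and in forming the air spaces of the lung.

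All fetuses were wild type, and their mothers had received a single intramuscular injection. Lung groups, of 3 fetuses each, were saline controls, Celestone (the clinical drug, equal parts of betamethasone phosphate and betamethasone acetate, 0.25 mg/kg) sampled 4 h or 5 d later, and betamethasone acetate alone (Beta-Ac, 0.125 mg/kg) sampled 6 h or 5 d later, with the lung labels giving 124 to 130 days of gestation. Hippocampus groups, of 5 fetuses each, were all collected at 5 d and at 130 to 136 days of gestation, and are named CTL, BAC and CEL after the names of their libraries. The CTL group received saline. The treatment and dose fields of the hippocampus labels name them the other way round, giving the BAC libraries the mixture at 0.25 mg/kg and the CEL libraries the acetate at 0.125 mg/kg. The lung labels of animals that gave both tissues go with the library names (3 BAC animals received Beta-Ac and 3 CEL animals Celestone), and the library names are used here. BAC is thus read as Beta-Ac at 0.125 mg/kg and CEL as Celestone at 0.25 mg/kg. For animals without a lung library this rests on the name alone. The gestational ages of the animals that gave both tissues conflict as well. Their lung labels give 124 to 130 days and their hippocampus labels 131 to 136 days, so the lungs cannot be taken as coming from younger fetuses. Drug, dose and, in the early lung groups, time differ together and cannot be told apart.

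Lung libraries held 14.1 to 45 M reads assigned to genes, and hippocampus libraries 18.3 to 29.3 M. Expression levels are given as CPM, read counts per M reads of the library after scaling by the trimmed mean of M values (TMM). A gene was called when its fold change was at least 1.5, its p in edgeR's quasi-likelihood test was under 0.05 and its adjusted p was under 0.1, by Storey's method (q) in lung and by Benjamini-Hochberg in hippocampus. Shares of all tested genes called are those of this test at its main settings. None is given for the other tests or settings, so their calls have no share beside them. Lung groups of 3 libraries can lie fully apart by chance alone. The share of all genes whose groups did not overlap was not counted, so a lack of overlap is a description. The tissues matched their markers: SFTPC, a surfactant protein of alveolar type II cells, was at 2708 to 5096 CPM in control lungs and at 0 to 0.428 CPM in CTL hippocampi, and SLC17A7, the vesicular glutamate transporter of excitatory neurons, was at no more than 0.402 CPM in control lungs and at 650 to 955 CPM in CTL hippocampi. ZBTB20, a transcription factor of hippocampal neurons, was low throughout CTL, at 0.551 to 1.83 CPM. Replicate 5 of CTL stood apart, with 5 of 8 choroid plexus genes found summing to 1160 CPM against 12.5 to 32.1 CPM in the other hippocampus libraries. Replicate 1 of CTL and replicate 4 of BAC differed in another way. Their most abundant gene took 0.381% and 0.405% of the reads, against 1.58% to 3.77% in the remaining hippocampus libraries. The hippocampus libraries came from 4 sequencing runs, of which only 2 held all 3 groups. In bulk tissue, fewer cells of a type and less RNA per cell cannot be told apart.

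In the lung the member that changed was the receptor EPHA4, which was lower 4 h after the clinical drug and was back in the range of the controls or above it at 5 d. No ligand was called by edgeR's quasi-likelihood test in any lung comparison. The ephrin-B ligands EFNB1 and EFNB2 showed shifts below the fold threshold or past it without passing the adjusted p.

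EPHA4 binds both A and B ephrins, which most Eph receptors do not. In the control lungs it was at 9.46, 5.34 and 8.68 CPM. At 4 h after the clinical drug it was at 4.05, 2.77 and 3.51 CPM, from 175, 37 and 56 reads. Each of these libraries was below every control library, and the groups did not overlap. The fall was 2.25-fold, a log2 fold change of -1.17 ± 0.24 (SE, 95% interval -1.68 to -0.67), with edgeR q = 0.00624. EPHA4 was the only one of the 7 members called in this comparison, in which 7.4% of the 17644 tested genes were called, so the count of members is no result about the family. The call held under each of the other analysis settings, with log2 fold changes from -1.38 to -1.04.

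At 6 h after Beta-Ac the 3 lungs had 8.65, 5.77 and 6.94 CPM of EPHA4, inside the range of the controls. At 5 d the levels were 9.40, 11.3 and 9.06 CPM after the clinical drug and 7.35, 7.68 and 6.93 CPM after Beta-Ac. The order of the means was thus clinical drug at 5 d (9.92 ± 1.2 CPM, SD, n = 3), controls (7.83 ± 2.19), Beta-Ac at 5 d (7.32 ± 0.375), Beta-Ac at 6 h (7.12 ± 1.45) and clinical drug at 4 h (3.44 ± 0.646). No difference was detected between neighbours in the upper 4 of this order: edgeR's p was 0.157 for the clinical drug at 5 d against controls, 0.667 for controls against Beta-Ac at 5 d and 0.857 for Beta-Ac at 6 h against 5 d. The lowest group did differ from its neighbour. Against Beta-Ac at 6 h the clinical drug at 4 h had an EPHA4 log2 fold change of -1.03 ± 0.23, at edgeR q = 0.0186. Against its own 5 d group the value was -1.51 ± 0.24, at edgeR q = 0.000862, again with no overlap between groups. EPHA4 was the only member called in each of these 2 comparisons, where 6.74% and 10.4% of all tested genes were called. The call against Beta-Ac was lost when only those 2 groups were fitted (log2 fold change -1.04, q = 0.113).

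**Figure D1:**
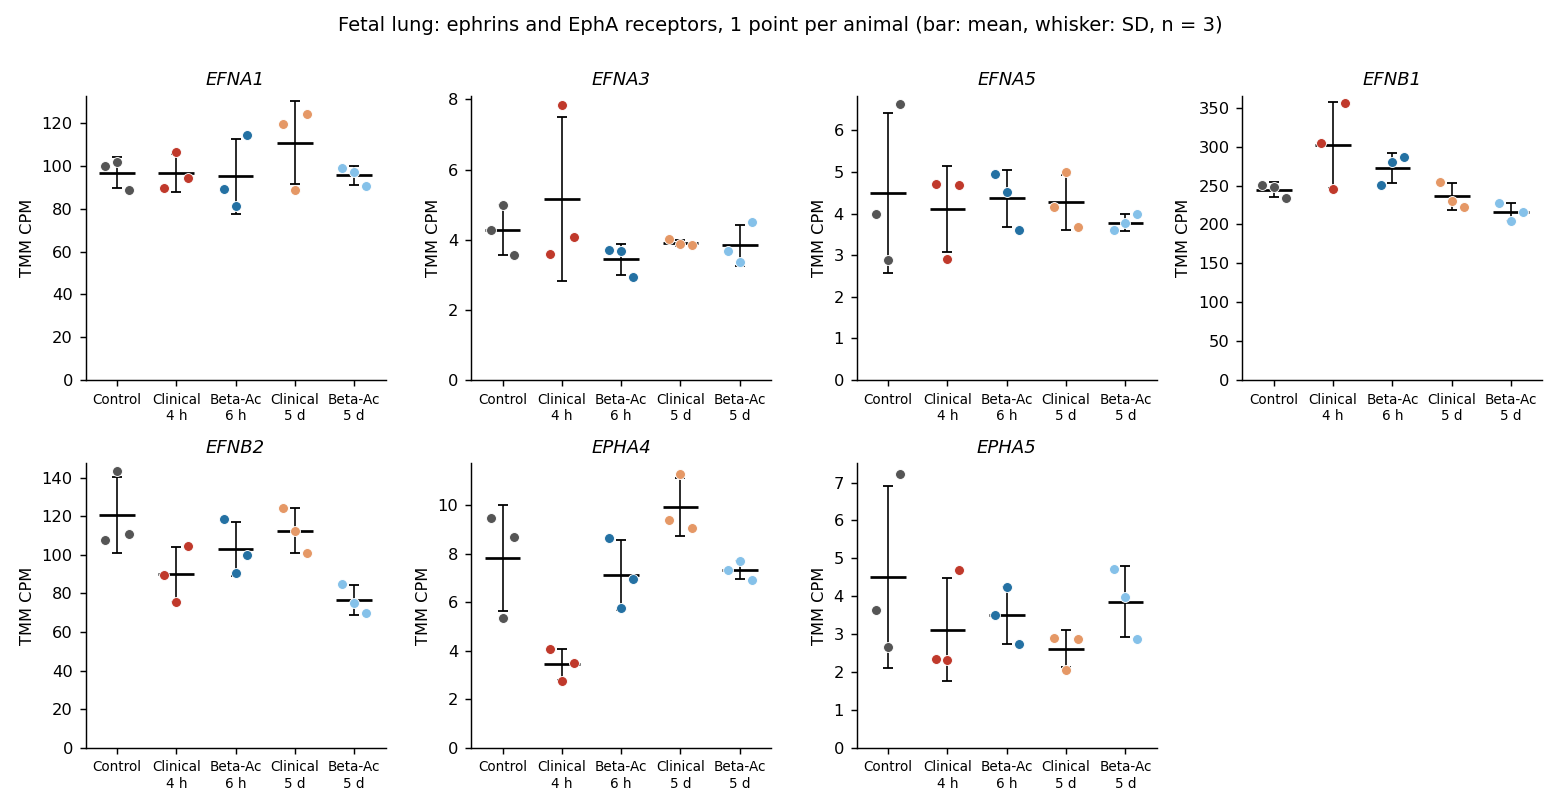
TMM-normalised CPM of the 7 members found in fetal lung, by group, with a separate axis from 0 for each gene, 1 point for each animal, a bar at the mean and a whisker of 1 SD. EPHA4 at 4 h after the clinical drug lies between 2.77 and 4.05 CPM, below all other groups, and EFNB2 at 5 d after Beta-Ac lies between 69.6 and 84.9 CPM, below all controls.

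The sum of 9 alveolar epithelial markers found, of 10 listed and none at 0, was 7500 to 10900 CPM in controls. At 4 h after the clinical drug the sum was 13100 to 19000 CPM, and 4 of the 9 markers were called higher. After Beta-Ac it was 9760 to 14100 CPM at 6 h and 11300 to 12800 CPM at 5 d. EPHA4 lay inside the control range in both of these groups. For the clinical drug at 5 d the sum was 8590 to 11800 CPM. Pearson's r between EPHA4 and the sum, both as log2 values, was -0.511 over the 15 lung libraries. Endothelial markers (9 of 10 found, none at 0) overlapped between controls (4220 to 5040 CPM) and the clinical drug at 4 h (3830 to 4930 CPM), as did mesenchymal markers (8 of 10 found, none at 0), at 14200 to 20900 against 14600 to 17600 CPM. The part of these cell types in the result was not tested. Over the 15 lung libraries, the tested genes with a symbol whose log2 CPM was most like that of EPHA4 were HPGDS, a prostaglandin D synthase (Pearson's r = 0.949), PGM5 (r = 0.931) and SMAD3, a transducer of TGF-beta signals (r = 0.927). These points share their libraries and group structure, and the values are a description.

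The ephrin-B ligands were the other lung members with an unadjusted edgeR p under 0.05. EFNB2, the arterial ligand, was at 108, 144 and 111 CPM in controls and at 89.4, 75.7 and 104 CPM 4 h after the clinical drug. The treated libraries were all below the controls, narrowly so in 1 case. The log2 fold change was -0.42 ± 0.15 (edgeR q = 0.0796), too small for the threshold of 1.5-fold. EFNB1, the ligand mutated in craniofrontonasal syndrome, was at 305, 246 and 356 CPM at 4 h after the clinical drug against 251, 249 and 234 CPM in controls. Of the 3 treated libraries 1 lay inside the control range, and the log2 fold change of 0.31 ± 0.12 had edgeR q = 0.104. Against the clinical drug at 5 d, EFNB1 at 4 h was higher by 0.36 ± 0.12 (edgeR q = 0.0445), below the fold threshold, with overlapping groups.

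EFNB2 was lowest 5 d after Beta-Ac, at 84.9, 74.9 and 69.6 CPM. These 3 libraries were below every control and below every library of the clinical drug at 5 d, which had 124, 113 and 101 CPM. The endothelial marker sum (9 of 10 found, none at 0) was also lower there, at 3840 to 3900 CPM against 4220 to 5040 CPM in controls and 4010 to 4550 CPM at 5 d after the clinical drug, with no overlap. Of the 9 markers 9 had a negative log2 fold change against controls (median -0.30 against 0.01 over all genes) and edgeR called none, and the part of endothelial cells in the EFNB2 difference was not tested. Against controls the log2 fold change was -0.66 ± 0.15 (95% interval -0.97 to -0.34), with an unadjusted edgeR p of 0.000529 and an adjusted one (q) of 0.641. In that comparison edgeR called 0 of 7 members, with 1 at an unadjusted p under 0.05, and 0.00567% of all tested genes. EFNB2 was called there by the likelihood ratio test of edgeR (q = 0.0549) and by DESeq2 (adjusted p = 0.0304). Between the drugs at 5 d, EFNB2 had a log2 difference of 0.56 ± 0.15 for clinical drug over Beta-Ac, with an unadjusted edgeR p of 0.00195 and a q of 0.999. Between those groups edgeR called 0 of the 7 members, with 1 at an unadjusted p under 0.05, DESeq2 and the likelihood ratio test called 0, and 0% of all genes were called.

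In the other 3 lung comparisons no member was called either. Beta-Ac at 6 h against controls gave 0 of 7 by edgeR, 0 at an unadjusted p under 0.05 and 0 by DESeq2 and the likelihood ratio test, where 0.442% of all genes were called. The clinical drug at 5 d against controls gave the same 4 counts of 0, with 0% of all genes called. Beta-Ac at 6 h against 5 d gave 0 of 7 by edgeR and by the 2 other tests, 2 at an unadjusted p under 0.05 and 0.261% of all genes. Those 2 were EFNB1 (log2 fold change 0.33, edgeR q = 0.391) and EFNB2 (0.43, edgeR q = 0.379), both with every library at 6 h above every library at 5 d.

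The A ligands and EPHA5 were not called in lung. EFNA1, an ephrin that tumour necrosis factor induces in endothelium, had a mean of 96.7 ± 7.18 CPM in controls (SD, n = 3) and of up to 110.8 CPM in the treated groups. Its 95% interval for the clinical drug at 4 h against controls ran from -0.30 to 0.30 on the log2 scale, inside the threshold of 1.5-fold in both directions. EFNA3 had group means of 3.44 to 5.17 CPM and EFNA5, a repellent of growing axons, of 3.79 to 4.50 CPM. Their intervals at 4 h were wider, from -0.34 to 0.85 for EFNA3 and from -0.75 to 0.49 for EFNA5, so changes of 1.5-fold lay within them. EPHA5, mainly a neuronal receptor, had group means of 2.61 to 4.51 CPM in lung, with its largest difference from controls at 5 d after the clinical drug (log2 fold change -0.80, edgeR q = 0.931).

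**Figure D2:**
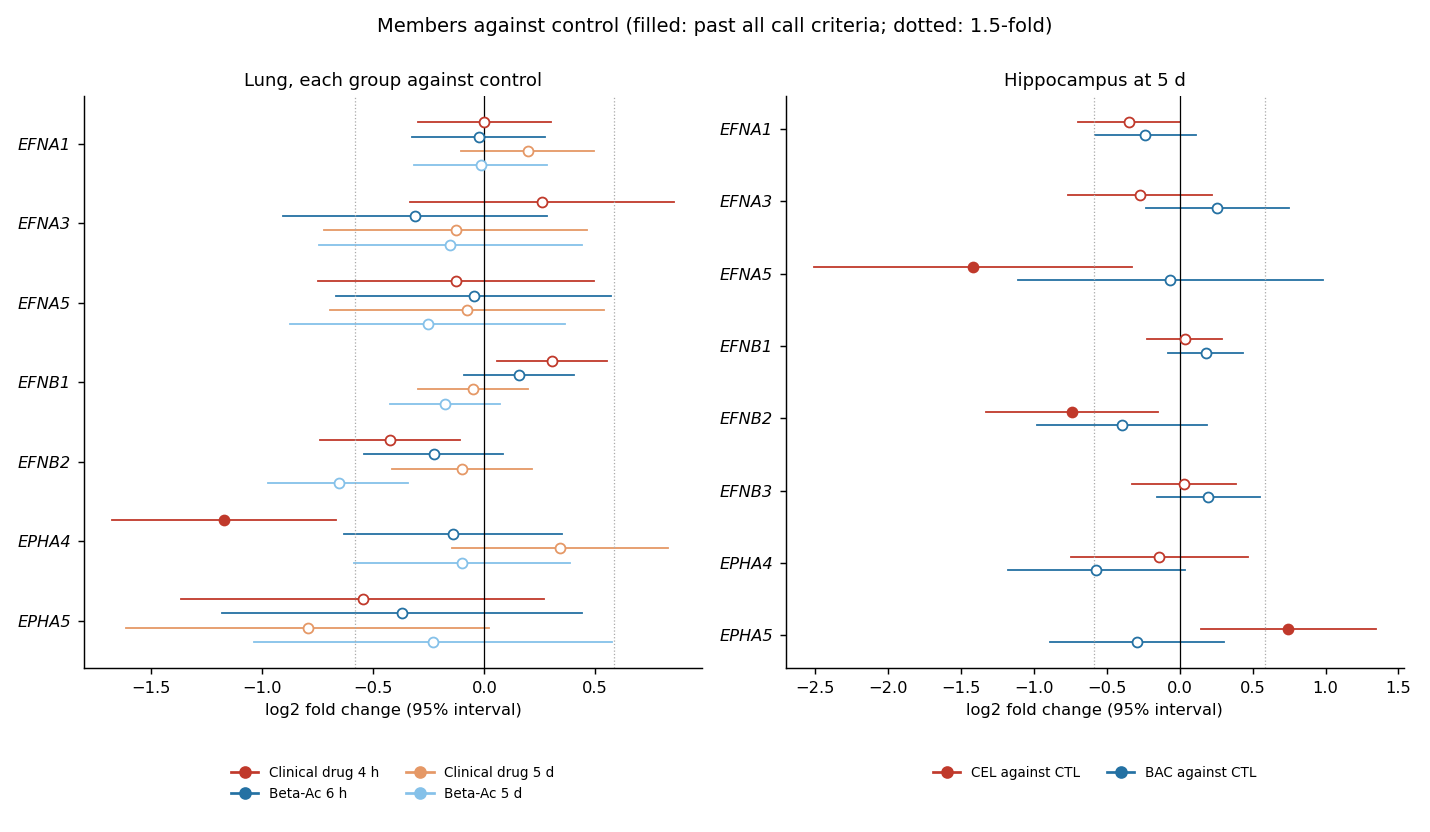
Log2 fold changes against control with 95% intervals for each member found, in lung (left, 4 groups) and hippocampus at 5 d (right, CEL and BAC). Filled points passed all call criteria: EPHA4 at 4 h after the clinical drug in lung (-1.17), and EFNA5 (-1.42), EFNB2 (-0.74) and EPHA5 (0.74) in CEL.

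Of 12 other Eph receptors listed, 8 were tested in lung. At 4 h after the clinical drug 7.4% of all 17644 tested genes were called, 695 lower and 611 higher. Of the 8 receptors 3 were called lower there and none higher. The log2 fold changes were negative in 7 of the 8, with a median of -0.55 against 0.02 over all tested genes. All 3 called were receptors of the B class. EPHB1 fell furthest: it was at 9.99, 10.6 and 8.23 CPM in controls and at 1.60, 2.17 and 3.07 CPM 4 h after the clinical drug, from 69, 29 and 49 reads. Every treated library was below every control. Its log2 fold change was -2.10 ± 0.28, a 4.28-fold fall (edgeR q = 0.000385), and the call held in each of 14 alternative settings (-2.39 to -1.88).

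EPHB3, which takes part in positioning epithelial cells, went from 101, 70.7 and 80.1 CPM to 58.6, 58.6 and 47.8 CPM, with no overlap. That was a log2 fold change of -0.61 ± 0.16 (edgeR q = 0.0248). EPHB2, known from synapses and vessels, went from 6.13, 4.38 and 2.61 CPM to 2.22, 1.94 and 2.63 CPM. The lowest control library was just below the highest treated one. The log2 fold change of EPHB2 was -0.94 ± 0.29 (edgeR q = 0.048). Both calls depended on single libraries. EPHB3 was not called without replicate 1 of the controls (log2 fold change -0.47) or replicate 3 of the clinical drug (-0.53). EPHB2 was not called without replicate 1 or 2 of the controls (-0.63 and -0.94), without replicate 2 of the clinical drug (-0.86) or when only these 2 groups were fitted (-0.95). The venous receptor EPHB4 was below the controls in all 3 libraries but by too little for the fold threshold (log2 fold change -0.32, edgeR q = 0.098).

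After Beta-Ac at 6 h 7 of the 8 log2 fold changes were negative as well, with a median of -0.32. Both early comparisons use the same 3 control libraries, so their signs are not independent. Against these controls 5 of the 8 values were negative at 5 d after the clinical drug and 3 after Beta-Ac. At 6 h after Beta-Ac edgeR called 0 of the 8 receptors, with 4 at an unadjusted p under 0.05, where 0.442% of all tested genes were called. The likelihood ratio test and DESeq2 called 0. EPHB1 (log2 fold change -0.74, q = 0.264) and EPHB3 (-0.47, q = 0.244) were below every control library there too. Against Beta-Ac at 6 h, the clinical drug at 4 h had lower EPHB1 (log2 fold change -1.36 ± 0.28, edgeR q = 0.012), a direct test of the difference between the early groups. EPHB2 was lower as well (-0.76 ± 0.28, edgeR q = 0.0902), a call that was lost in 8 of 14 alternative settings. These were 2 of the 8 receptors, where 6.74% of all tested genes were called. Against the clinical drug at 5 d, EPHB1 (-1.68), EPHB2 (-1.02) and EPHA7 (-0.61) were called lower at 4 h, and EPHA7 lost its call in 7 of 14 settings. That was 3 of the 8, where 10.4% of all tested genes were called. For Beta-Ac at 6 h against 5 d edgeR called 0 of the 8, where 0.261% of all tested genes were called, and DESeq2 called 1. At 5 d edgeR, the likelihood ratio test and DESeq2 each called 0 of the 8 against controls for either drug, with 0 at an unadjusted edgeR p under 0.05 after the clinical drug and 1 after Beta-Ac. That 1 was EPHB1, which was below every control after Beta-Ac, at 5.24, 5.59 and 5.23 CPM (log2 fold change -0.84 ± 0.27, edgeR q = 0.665).

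**Figure D3:**
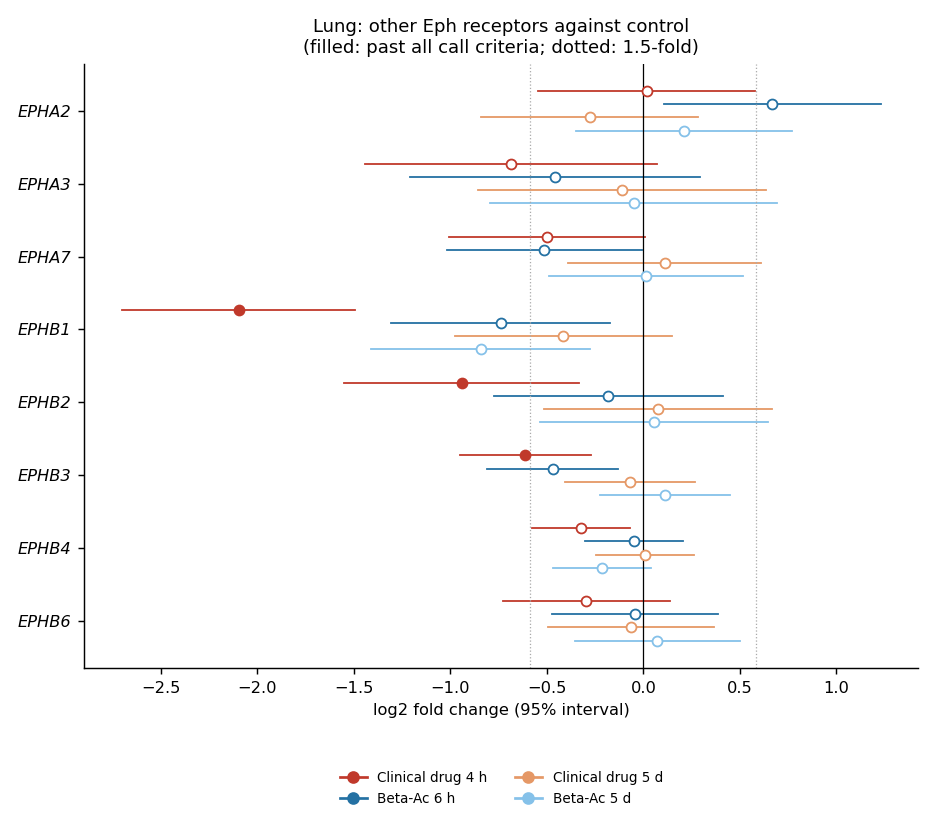
Log2 fold changes against control, with 95% intervals, of the 8 other Eph receptors tested in lung, for the 4 treated groups. Filled points, past all call criteria, occur only 4 h after the clinical drug, for EPHB1 (-2.10), EPHB2 (-0.94) and EPHB3 (-0.61), while 7 of the 8 values lie below 0 both there and 6 h after Beta-Ac. All 4 groups are set against the same control libraries.

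Downstream of the receptors, 28 of 30 listed signalling partners (kinases, adaptors and exchange factors) were tested in lung. Against controls, edgeR, the likelihood ratio test and DESeq2 each called 0 of them in the 4 treated groups, with 1 to 6 at an unadjusted edgeR p under 0.05. At 4 h after the clinical drug 17 of the 28 log2 fold changes were positive, with a median of 0.05 against 0.02 over all genes. Between treated groups, the clinical drug at 4 h exceeded Beta-Ac at 6 h in VAV3, a guanine nucleotide exchange factor (log2 fold change 0.69 ± 0.17, edgeR q = 0.0247), a call that was lost when only those 2 groups were fitted (q = 0.12). It exceeded its own 5 d group in FYN, a Src family kinase (0.59 ± 0.08, edgeR q = 0.000326), and KALRN, an exchange factor for Rac (0.88 ± 0.29, edgeR q = 0.0505). The FYN value lies at the fold threshold and was called in only 6 of 14 alternative settings, and KALRN was not called without replicate 1 of the clinical drug at 4 h (log2 fold change 0.52) or without replicate 2 or 3 at 5 d (0.85 and 0.80). In these comparisons 1 and 2 of the 28 partners were called, where 6.74% and 10.4% of all tested genes were called.

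In the hippocampus 3 of the 8 members were called between CEL and CTL at 5 d, where 7.86% of the 17390 tested genes were called. The ligands EFNA5 and EFNB2 were lower and the receptor EPHA5 was higher in CEL. In all 3 the groups overlapped, and none of the 3 calls held when the sequencing run was a term of the fit.

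EFNA5 and EPHA5 are a ligand and receptor pair known from axon mapping. EFNA5 was at 5.21, 5.13, 3.33, 14.6 and 4.08 CPM in CTL and at 2.75, 4.58, 2.84, 1.31 and 0.619 CPM in CEL, the last from 12 reads. In BAC it was at 4.41, 7.46, 8.98, 2.20 and 7.94 CPM. In CEL, 4 libraries were below every CTL library and 1, at 4.58 CPM, lay inside the CTL range, while the highest library of all was in CTL. The log2 fold change of CEL against CTL was -1.42 ± 0.51 (95% interval -2.51 to -0.33, edgeR adjusted p = 0.0774). Without the highest CTL library, replicate 4, it was -0.86 and not called (adjusted p = 0.239). Within the 2 runs that held all groups, mean EFNA5 was 3.33 CPM in the single CTL library, 6.95 in BAC and 3.39 in CEL in run 1630, and 4.08, 5.07 and 0.966 CPM in run 0164. With run in the fit the log2 fold change was -0.89 (adjusted p = 0.311).

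EPHA5 was at 207, 259, 311, 99.2 and 144 CPM in CTL, at 181, 180, 157, 224 and 91.8 CPM in BAC, and at 364, 437, 217, 349 and 343 CPM in CEL. In CEL, 4 libraries were above every CTL and BAC library, and 1 lay inside the range of CTL and of BAC. Against CTL the log2 fold change was 0.74 ± 0.28 (95% interval 0.14 to 1.35, edgeR adjusted p = 0.0906). Against BAC it was larger, 1.04 ± 0.29, with an adjusted p of 0.219 by edgeR, and passed the criteria in DESeq2 (adjusted p = 0.0303) and in the likelihood ratio test (adjusted p = 0.0724). Run 1630 had mean EPHA5 of 311 CPM in its CTL library, 172 in BAC and 339 in CEL, and run 0164 had 144, 158 and 346 CPM. With run in the fit the log2 fold change against CTL was 0.61 (adjusted p = 0.276). EPHA5 was not called either without replicate 5 of CTL, the library with choroid plexus genes (log2 fold change 0.64, adjusted p = 0.16).

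**Figure D4:**
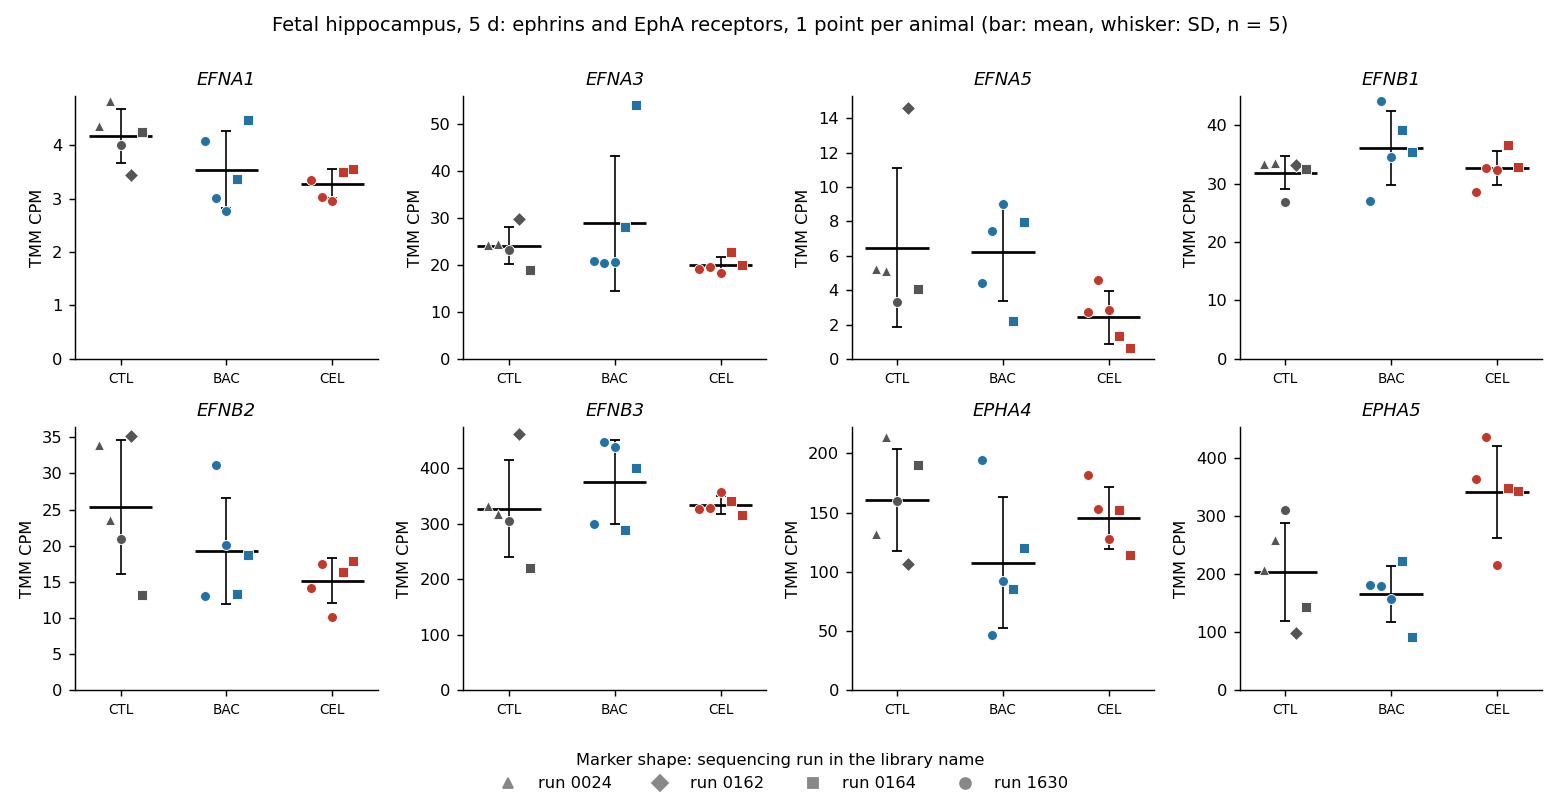
TMM-normalised CPM of the 8 members found in fetal hippocampus at 5 d, by group, with a separate axis from 0 for each gene, 1 point for each animal shaped by sequencing run, a bar at the mean and a whisker of 1 SD. EPHA5 is above 340 CPM in 4 of 5 CEL libraries, EFNA5 is highest in 1 CTL library at 14.6 CPM, and 3 of the 5 CTL libraries come from runs 0024 and 0162, which hold no treated animal.

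EFNB2 was at 33.99, 23.5, 20.9, 35.1 and 13.1 CPM in CTL, at 13.0, 31.2, 20.1, 13.4 and 18.7 CPM in BAC, and at 14.1, 17.4, 10.2, 16.3 and 17.9 CPM in CEL. In CTL, 4 libraries were above all CEL libraries and 1 was below 4 of them. The log2 fold change of CEL against CTL was -0.74 ± 0.28 (95% interval -1.33 to -0.15, edgeR adjusted p = 0.0869). The 3 highest of those 4 CTL libraries came from the runs without treated animals, and with run in the fit the value dropped to -0.16 (adjusted p = 0.791). In run 0164 the CTL library, at 13.1 CPM, was below the CEL mean of 17.1 CPM, and in run 1630 it was above it, at 20.9 against 13.9 CPM.

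Leaving out a single CTL or CEL library changed the count of called members between CEL and CTL to between 0 and 3. It became 0 without replicate 1 or 4 of CTL and without replicate 1, 4 or 5 of CEL, and 1 without replicate 2 of CTL and without replicate 2 or 3 of CEL. The directions of the 3 values did not change in any of these.

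Sums of cell type markers moved with the same libraries, though edgeR called no gene of the 2 neuronal lists between CEL and CTL. Of the 10 excitatory neuron markers, all found and none at 0, 8 had a positive and 2 a negative log2 fold change for CEL against CTL. A sum weighs its most abundant genes most. These markers summed to 1710 to 2680 CPM in CTL, 1520 to 2440 CPM in BAC and 2700 to 3170 CPM in CEL, which overlapped neither group. Across the 15 libraries, log2 EPHA5 rose with that sum (r = 0.813, Spearman's coefficient 0.896) and log2 EFNA5 fell with it (r = -0.772, Spearman's -0.804). The 7 interneuron markers found of 10, none at 0, summed to 471 to 932 CPM in CTL, 575 to 941 CPM in BAC and 476 to 679 CPM in CEL, and EFNA5 (r = 0.803, Spearman's 0.796) and EFNB2 (r = 0.663, Spearman's 0.632) rose with them. Of the 7, 2 had a positive and 5 a negative log2 fold change for CEL against CTL. Lists of other cells held genes called between CEL and CTL, among them 4 of 5 choroid plexus genes, called lower and highest in replicate 5 of CTL. Of 3 microglial markers tested 2 were called higher, P2RY12 and C1QC, and their sum was 57.9 to 129 CPM in CTL, 79.5 to 109 CPM in BAC and 88.2 to 152 CPM in CEL (with EPHA5, r = 0.616 and Spearman's 0.674). Of 7 striatal markers tested (ISL1, not tested, was at 0 in CEL) 2 were called lower, SIX3 and RGS9, and 7 of the 7 values were negative, with sums of 128 to 220 CPM in CTL, 124 to 219 CPM in BAC and 101 to 136 CPM in CEL (with EPHA5, r = -0.53 and Spearman's -0.632, and with EFNA5, r = 0.579 and Spearman's 0.604). Thalamic markers, 1 of 7 called lower, summed to 146 to 289 CPM in CTL, 148 to 269 CPM in BAC and 155 to 234.8 CPM in CEL (with EFNA5, r = 0.494 and Spearman's 0.654). Of 9 fibroblast and mesenchymal markers 4 were called lower, the collagens among them, with sums of 673 to 2040 CPM in CTL, 648 to 1270 CPM in BAC and 654 to 928 CPM in CEL, and their r with the 3 members lay between -0.292 and 0.169. Of 9 endothelial markers 1 was called lower. Their sums were 186 to 460 CPM in CTL, 236 to 306 in BAC and 214 to 308 in CEL (with EFNB2, r = -0.393). Of 7 astrocyte and radial glia markers 1 was called higher. Their sums were 2700 to 3960 CPM in CTL, 2810 to 4790 in BAC and 3680 to 5040 in CEL (with EFNB2, r = -0.534). The leukocyte and alveolar lists each held 1 gene called higher. EFNB2 had r = -0.58 with the excitatory and 0.504 with the thalamic sum. EFNA5 and EPHA5 themselves ran in opposite directions (r = -0.693, Spearman's -0.689). These correlations are descriptions over libraries that share groups, runs and a scale of relative abundance, and the part of cell composition in the 3 differences was not tested.

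**Figure D5:**
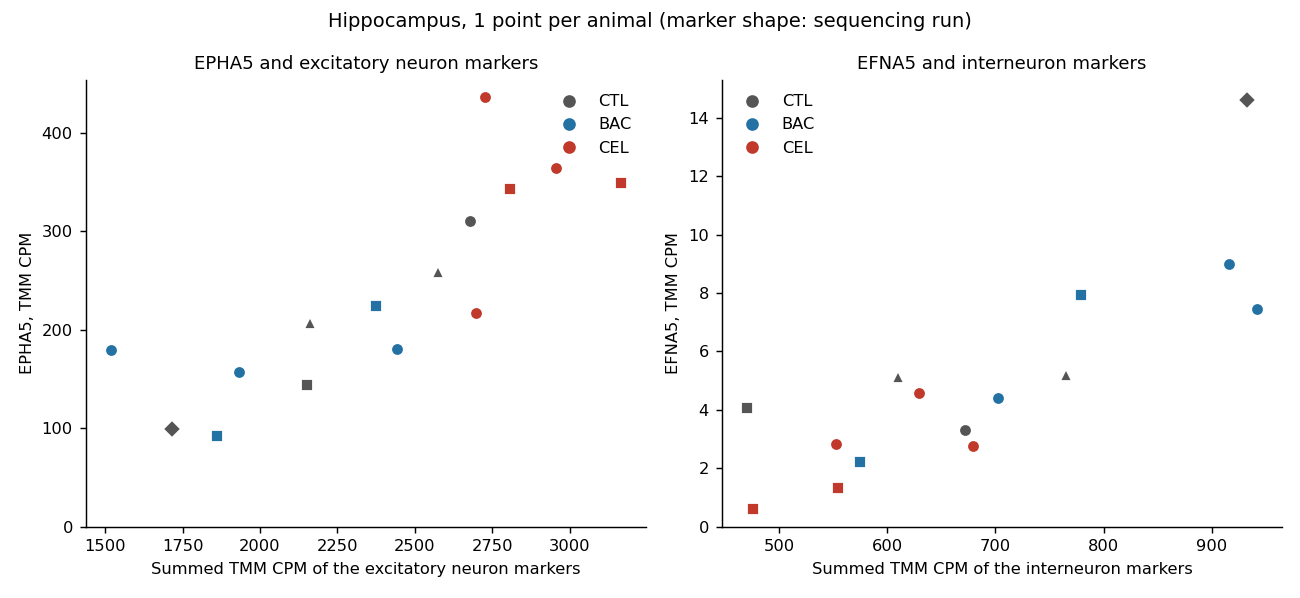
CPM of EPHA5 against the summed CPM of 10 excitatory neuron markers (left) and CPM of EFNA5 against the summed CPM of 7 interneuron markers (right) in the 15 hippocampus libraries, coloured by group and shaped by sequencing run. The 5 CEL libraries have the highest excitatory sums, 2700 CPM or more, and the CTL library with 14.6 CPM of EFNA5 has one of the highest interneuron sums, 932 CPM.

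Among tested genes with a symbol, those whose log2 CPM over the 15 hippocampus libraries was most like EFNA5 were NRG1, a ligand of ERBB receptors (r = 0.879), SLC7A3, a transporter of cationic amino acids (r = 0.874), and SNCB, beta-synuclein (r = 0.873). For EPHA5, where 2 identifiers without a symbol had a higher r and were passed over, they were FBXO34 (r = 0.92), MGLL, which breaks down the endocannabinoid 2-arachidonoylglycerol (r = 0.909), and ZNF184 (r = 0.908). GABRA3, a subunit of the GABA-A receptor (r = 0.953), SORCS3 (r = 0.935) and MFSD13A (r = 0.909) were most like EFNB2.

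The other hippocampus members were not called in any comparison. EFNB3, a midline barrier to corticospinal axons that acts through EPHA4, had means of 327 ± 87.0 CPM in CTL, 375 ± 75.7 in BAC and 334 ± 15.8 in CEL (SD, n = 5), and its 95% interval for CEL against CTL, -0.32 to 0.38 on the log2 scale, lay inside 1.5-fold. EFNB1 means were 31.9 to 36.1 CPM, and its interval for CEL against CTL ran from -0.22 to 0.29. EFNA1 was 4.18 ± 0.502 CPM in CTL and 3.28 ± 0.272 CPM in CEL, a log2 fold change of -0.35 ± 0.16 (edgeR adjusted p = 0.162). EFNA3, which in the hippocampus is borne by astrocytes that face EPHA4 on dendritic spines, had medians of 24.2, 20.9 and 19.6 CPM in CTL, BAC and CEL.

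EPHA4 in the hippocampus ranged from 107 to 214 CPM in CTL, from 46.4 to 195 CPM in BAC and from 114 to 182 CPM in CEL. Its log2 fold change was -0.14 ± 0.29 for CEL against CTL and -0.57 ± 0.29 for BAC against CTL (edgeR adjusted p = 0.429). Hippocampi at the early times of the lung groups were not analysed here.

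Between BAC and CTL edgeR called 0 of 8 members, with 0 at an unadjusted p under 0.05 and 0 by DESeq2 and the likelihood ratio test, and 0% of all genes. Between CEL and BAC edgeR called 0 of 8, with 3 at an unadjusted p under 0.05 (EFNA3, EFNA5 and EPHA5), 1 by DESeq2 and 1 by the likelihood ratio test, and 0% of all genes. EFNA5 was lower in CEL than in BAC by a log2 fold change of -1.36 ± 0.51 (edgeR adjusted p = 0.279) and EFNA3 by -0.53 ± 0.23 (adjusted p = 0.331). Of the 11 other Eph receptors tested in hippocampus edgeR called 0 in each of the 3 comparisons. Their counts at an unadjusted edgeR p under 0.05 were 3 for CEL against CTL, 1 for BAC against CTL and 2 for CEL against BAC, while DESeq2 called 1, 0 and 1 and the likelihood ratio test 0, 0 and 1. No share of all genes called is given for these 2 tests. EPHA7, a further receptor for A ephrins, came closest, with a log2 fold change of 0.57 ± 0.17 (edgeR adjusted p = 0.0429) between CEL and CTL, just under the fold threshold. It was higher in every CEL than in every BAC library (0.79 ± 0.17, adjusted p = 0.208). Of the 29 signalling partners tested 1 was called between CEL and CTL, where 7.86% of all tested genes were called. It was ITSN1, a scaffold and Cdc42 exchange factor, with a log2 fold change of -0.64 ± 0.21 (edgeR adjusted p = 0.0597) and overlapping groups. ITSN1 was not called in 6 of 21 alternative settings, among them without replicate 2 of CTL or replicate 3, 4 or 5 of CEL. Between BAC and CTL edgeR called 0 of the 29 partners and DESeq2 1, and between CEL and BAC both called 0.

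Both tissues came from 9 animals, which sets the levels of each member side by side, although the tables were prepared and normalised separately and the comparison is not tested. In each of the 9 animals the CPM of EFNA1 was 21.1 to 42 times higher in lung than in hippocampus, that of EFNB1 4.64 to 8.93 times and that of EFNB2 2.41 to 9.92 times. EFNA3 was 4.6 to 6.51 times, EPHA4 6.04 to 40 times and EPHA5 at least 38.2 times higher in hippocampus. EFNA5 had no common direction, with hippocampus to lung ratios from 0.502 to 2.26. EFNA1 and EFNA3, whose levels were apart in opposite directions, are adjacent genes on chromosome 1 in the RefSeq annotation of the rhesus genome, with no annotated gene between them.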

How the data were processed

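RNA was sequenced from 15 lung and 15 hippocampus samples. The deposited tables hold raw read counts per Ensembl gene, which the authors made by aligning paired-end reads with Bowtie (version 1.2.1.1 in the lung processing notes, Bowtie 2 in the methods and the hippocampus notes) to MMUL1.0 and counting with featureCounts (1.5.1 for lung). The methods name the build once, and for hippocampus it is not given separately. Strand and multi-mapped reads are not described, so reads shared by similar genes may be split between them. Symbols came from an Ensembl table and covered 52.1% of lung and 54.4% of hippocampus identifiers, of which 20572 are shared.

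Counts were tested with edgeR 4.0.16 (R 4.3.3, TMM, quasi-likelihood F-test, a single fit per tissue) and with DESeq2 1.42.0 as an alternative. Prior counts were 0.125 for fold changes and 2 for log2 CPM. SE is the log2 fold change over the root of F. The procedure was tested on simulated counts. Replicates differed by far more than counting error (chi-square per degree of freedom at least 21.6 in lung and 14.6 in hippocampus), so no duplicates were found, and the precision is set by the spread between animals.

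Members and gene lists were chosen with earlier results of these data known. Values of every library are printed for called members and for the lung ephrin-B ligands, and pathway genes are named where called. For each called member, the 3 tested genes with the highest Pearson's r among those with a symbol are given. The library values of lung EFNB1 and EFNB2, EPHB4, EPHA7 in hippocampus, and EPHB1 and EPHB3 outside their calls were chosen after their values were seen.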

Additional observations from a re-analysis of the deposited data

Results flagged for a closer look

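In 24 groups of 5 hippocampus libraries (8 members in 3 groups), 3 held a library whose gap to its nearest neighbour took up most of the group's range, and chance flags about 1 in 20 such groups. EFNA5 in replicate 4 of CTL was at 14.6 CPM against 3.33 to 5.21 CPM in the other 4 (gap over range 0.833), and the call for EFNA5 between CEL and CTL was lost without it. EFNA3 in replicate 5 of BAC was at 53.9 CPM against 20.5 to 28.1 CPM in the others (0.772). EFNB1 in replicate 3 of CTL was low, at 26.9 CPM against 32.5 to 33.5 CPM (0.856).

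EPHA4 in lung differed between treated groups in the test of the difference itself. It was lower 4 h after the clinical drug than 6 h after Beta-Ac (log2 fold change -1.03, edgeR q = 0.0186) and than 5 d after the clinical drug (-1.51, edgeR q = 0.000862). The early groups differ in drug, dose and time, which cannot be told apart.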

How the results depend on the processing

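Counts of called members (edgeR) that changed with the setting were as follows. The share of all tested genes called under each setting is not given, so a changed count is no result about these genes. Without a fold threshold 2 in place of 1 were called 4 h after the clinical drug, both against controls and against 5 d. Fitting only the 2 groups gave 0 in place of 1 for the clinical drug at 4 h against Beta-Ac at 6 h, and leaving out single libraries gave 1 to 2, the 2 without replicate 1 of the clinical drug. The likelihood ratio test and DESeq2 each called 1 in place of 0 for Beta-Ac at 5 d against controls and for CEL against BAC. For CEL against CTL, 3 became 1 with no filter, 0 with sequencing run as a block or in the 2 complete runs alone, and 0 to 3 without single libraries. With the groups of the treatment field, which exchange BAC and CEL, 0 were called for CEL against CTL and 3 for BAC against CTL. EPHA5 then had log2 fold changes of -0.29 (CEL against CTL) and -1.04 (CEL against BAC), and EFNA5 (1.36) and EFNA3 (0.53) turned likewise for CEL against BAC, since the names are exchanged.

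Of the values for single members under all alternatives, 1192 kept their call or, where not called, moved by no more than 1 SE (with some changes of sign), 33 lost a call, 10 gained one, 49 uncalled values moved by more than 1 SE and 4 with an unadjusted p under 0.05 reversed. All 4 reversals came from the groups of the treatment field, where the names BAC and CEL are exchanged, as did some of the calls lost and gained. The cause of the other changes was not tested. No paired analysis between groups was possible because the groups of each tissue held different fetuses. Lung EPHA4 rests on 37 to 335 reads per library and hippocampus EFNA5 on 12 to 368, so small changes of either were not detectable.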
